A study of Mus musculus with 5 samples.

Results

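Genes used to mark preadipocytes and other mesenchymal progenitor cells were examined in fat cells grown from the mouse line 3T3-L1, with and without myeloma cells nearby. The genes were Dlk1, Pdgfra, Pdgfrb, Pdgfrl, Cd24a, Thy1, Ly6a, Cd34, Zfp423 and Dpp4. They were chosen by name, with earlier results of these data known. Of the 10, 8 were matched by symbol to a probe set (the group of array probes that reads 1 gene), out of 19505 gene symbols in the table. Pdgfra and Ly6a were matched by neither symbol nor gene number and are not analysed here. Each of the 8 had 1 probe set.

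3T3-L1 is a clonal fibroblast line that turns into fat cells in culture. The cells of both groups had 4 days in growth medium, 4 days with insulin (5 µg/mL), dexamethasone (1 µM) and IBMX (0.5 mM), 2 days with insulin only and 1 day in growth medium again. Exposed cultures then spent 72 h in RPMI-1640 with 10% serum, sharing it with human MM.1S myeloma cells held behind a transwell membrane of 0.4 µm pores, and gave 3 arrays. Control cultures had the same medium without myeloma cells and gave 2 arrays. The labels call the arrays of a group replicates without saying that separate cultures were used, and the p-values below rest on a spread that may be technical. No undifferentiated 3T3-L1 sample was analysed here, and the levels below are those left after differentiation, with no starting level to set them against.

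Progenitor markers describe the stages before a fat cell forms. PDGF receptors are tyrosine kinases of mesenchymal cells that bind platelet-derived growth factors, and cells bearing them include the adipocyte precursors of fat tissue. DLK1, also called PREF-1, is a membrane protein with EGF-like repeats whose shed outer part inhibits adipogenesis, and in 3T3-L1 cells its RNA falls as they differentiate. ZFP423 is a zinc-finger protein that commits precursors to the fat lineage, while CD34, CD24, SCA-1 (the product of Ly6a), THY1 and DPP4 are surface proteins by which precursors are sorted.

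Values are log2 expression values after RMA, so a step of 1 is 2-fold. Array medians lay between 4.80 and 4.88. The table holds no detection calls, RMA compresses differences between dim signals, and 5 arrays limit the precision of every value. Probe sets also differ in how strongly they bind, so the levels do not rank the genes by RNA amount. Of 18 listed mature adipocyte markers 15 were measured, and 14 of these lay above the median of all probe sets (4.81). So did 13 of 16 general fibroblast and mesenchymal genes and 12 of 13 measured PDGF signalling genes. The count alone therefore does not set adipocytes apart. Median levels of these lists were 9.85, 9.13 and 6.73. Whether a lower value stands for fewer progenitor-type cells or for less RNA in each cell cannot be told apart in such bulk samples.

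Several progenitor markers read high on the arrays of the differentiated cultures. Of the 8 measured markers 5 lay above 6.85, the 75th percentile of all probe sets, and 3 lay below the overall median. Averaged over the 5 arrays, Dlk1 read 10.45, Thy1 9.30, Pdgfrb 7.39, Pdgfrl 7.28 and Zfp423 7.23. The dim ones were Cd24a at 4.09, Cd34 at 3.50 and Dpp4 at 2.91. Markers of cell types foreign to the culture covered a similar range to these dim signals, from 2.40 to 5.02 for 9 macrophage genes and from 2.27 to 5.04 for 9 endothelial genes. For 9 B and plasma cell genes the range was 2.26 to 7.49, with Sdc1, the syndecan-1 gene, at the top.

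**Figure D1:**
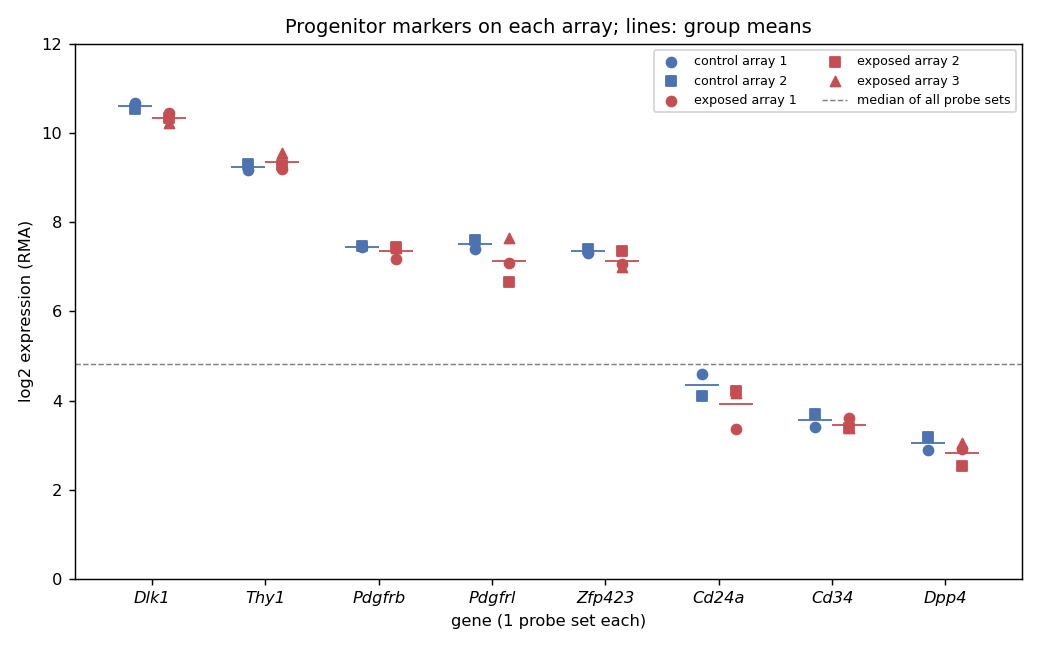
Log2 expression (RMA) of 8 progenitor markers on each of 2 control and 3 exposed arrays; points are arrays, short lines are group means and the dashed line is the median of all probe sets (4.81). Dlk1, Thy1, Pdgfrb, Pdgfrl and Zfp423 lie above that line on all 5 arrays and Cd24a, Cd34 and Dpp4 below it.

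Sequence upstream of the start is shown for Cd34 and Dpp4, the dimmest members, because their RefSeq windows (GRCm38.p6) reach outside the gene's own span. Of the 8 measured members, 4 had an entry among 32851 promoter windows, and those of Dlk1 and Zfp423 lay inside the gene and are not printed. Capitals mark CpG pairs, the sites of DNA methylation in mammals. The Cd34 stretch is the 250 bases at chr1:194938571-194938820 on the plus strand, and the Dpp4 stretch the 166 bases at chr2:62412316-62412481 on the minus strand.
Cd34: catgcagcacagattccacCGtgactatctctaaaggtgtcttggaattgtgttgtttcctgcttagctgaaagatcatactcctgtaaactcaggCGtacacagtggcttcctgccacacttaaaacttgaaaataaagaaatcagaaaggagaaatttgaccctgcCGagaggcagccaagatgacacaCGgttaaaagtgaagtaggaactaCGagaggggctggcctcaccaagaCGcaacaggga
Dpp4: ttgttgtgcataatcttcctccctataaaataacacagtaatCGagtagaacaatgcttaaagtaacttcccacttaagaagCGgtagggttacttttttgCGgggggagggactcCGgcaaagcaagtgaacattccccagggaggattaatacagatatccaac
The Cd34 stretch held 6 CpG pairs, the median of all windows of that length (6), at a GC content of 46.4%. The Dpp4 stretch held 4, against a median of 3 at its length, with 42.8% GC. This stretch is the 166 bases farthest upstream in a window of 250, so the bases nearest the start are left out. Windows compared with it were cut in the same way. A search of both strands for TATAAA found 1 match upstream of Dpp4 and 0 upstream of Cd34, where 7.91% and 12.4% of all windows of the same length held it. GGGCGG, the GC box, was in neither (18.9% and 32.7% of windows). No measurement here bears on these sites.

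Exposed and control arrays were compared to ask whether factors from myeloma cells alter these markers. No member was called: limma, fitted over all 22206 probe sets with Benjamini-Hochberg adjustment, gave an adjusted p under 0.05 for 0 of 8 members and for 0% of all probe sets. The smallest adjusted p among the members was 0.93. At an unadjusted p under 0.05 there were 0 of 8 members, against 3.49% of all probe sets. Group means were lower on exposed arrays for 7 of 8 members, with a median difference of -0.21, where 50.1% of all probe sets were lower and their median difference was -0.00040. This background varied with brightness. With everything dimmer than the overall median left out, 56.1% of the remaining 11103 were lower and their median difference was -0.025. Of the 5 members that remained, 4 were lower, with a median difference of -0.21. Earlier results of these data were known when the genes were chosen, so this direction is a description. The 95% intervals of 6 of the 8 excluded a 2-fold difference either way, as did those of 92.9% of all probe sets.

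Among the receptors for PDGF, Pdgfrb, the receptor of pericytes and fibroblasts, was nearly level. It read 7.17, 7.44 and 7.43 on exposed arrays 1 to 3 and 7.44 and 7.46 on control arrays 1 and 2. Exposed array 1 was low and the others lay together, so that the exposed mean was 7.35 ± 0.15 (SD, n = 3) against 7.45 ± 0.01 (SD, n = 2). The difference was -0.11 with an interval of -0.45 to 0.24 (limma adjusted p 0.94), and without exposed array 1 it was -0.018. Exposed array 2 and control array 1 held exactly the same value for this probe set, and tied values occurred in 6038 of all 22206 probe sets.

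Pdgfrl encodes a secreted protein that resembles the outer part of a PDGF receptor and has no kinase. It read 7.07, 6.67 and 7.64 on exposed arrays and 7.41 and 7.60 on control arrays. The exposed arrays spanned the whole range, the highest as well as the lowest value being theirs, and the groups overlapped. Means were 7.13 ± 0.49 (SD, n = 3) and 7.50 ± 0.14 (SD, n = 2), a difference of -0.38 (-1.06 to 0.31, limma adjusted p 0.93), which did not exclude a 2-fold decrease. Leaving out exposed array 2 gave -0.15, and leaving out exposed array 3 gave -0.63 at an unadjusted limma p of 0.026 (adjusted p 0.88).

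Dlk1 had its 3 exposed values below both control values. Exposed arrays read 10.44, 10.34 and 10.23, and control arrays read 10.68 and 10.55. The groups did not overlap, a pattern that 8.84% of all probe sets shared, and the gap between the nearest exposed and control arrays was smaller than the range within the exposed group. Means were 10.34 ± 0.10 (SD, n = 3) and 10.62 ± 0.09 (SD, n = 2), a difference of -0.28 with an interval of -0.60 to 0.05. The size, 1.21-fold, did not pass the test (limma p 0.081, adjusted p 0.93). With 1 array left out the difference ranged from -0.34 to -0.21. A prior variance that follows the level (limma-trend) gave an unadjusted p of 0.018 and an adjusted p of 0.93. The groups of the other 7 members overlapped; 0 of 8 had all exposed values above both controls, as 8.5% of all probe sets did.

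Zfp423 followed the exposed arrays unevenly. It read 7.06, 7.35 and 7.01 on exposed and 7.30 and 7.41 on control arrays. Exposed arrays 1 and 3 were low, while exposed array 2 lay between the control arrays. The difference was -0.21 (-0.59 to 0.16, limma adjusted p 0.93), and it ranged from -0.32 without exposed array 2 to -0.15 without exposed array 3.

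Of the surface proteins by which precursors are sorted, Thy1, a GPI-anchored glycoprotein of fibroblasts, was the member with a higher exposed mean. It read 9.19, 9.28 and 9.55 on exposed and 9.17 and 9.30 on control arrays, so that only exposed array 3 lay above both controls. Its difference was 0.11 (-0.27 to 0.48, limma adjusted p 0.95) and ranged from 0.0020 without exposed array 3 to 0.18 without exposed array 1.

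Cd24a, which encodes a small GPI-anchored sialoprotein of early adipocyte progenitors that is lost as they commit to the preadipocyte stage, differed most in mean and also varied most between arrays. Exposed arrays read 3.37, 4.21 and 4.18, and control arrays read 4.60 and 4.10. Exposed array 1 alone was far below the rest, and the other exposed arrays lay between the controls. The difference of -0.43 (-1.16 to 0.31, limma adjusted p 0.93) did not exclude a 2-fold decrease, and it ranged from -0.68 without control array 2 to -0.18 without control array 1 and -0.15 without exposed array 1. Over all 5 arrays the SD was 0.45 for Cd24a and 0.41 for Pdgfrl, against a median of 0.20 over all probe sets. For the other 6 members it ran from 0.12 to 0.24.

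Cd34, the sialomucin of vascular and progenitor cells, read 3.62, 3.37 and 3.38 on exposed and 3.41 and 3.71 on control arrays. Exposed array 1 lay between the controls and the other exposed arrays just below the lower one. Its difference was -0.098 (-0.48 to 0.29, limma adjusted p 0.95), and it turned to 0.054 without control array 2 and was -0.25 without control array 1. Dpp4, a membrane-bound peptidase of early interstitial progenitors, read 2.91, 2.53 and 3.05 on exposed and 2.89 and 3.18 on control arrays. Exposed array 2 was the low one, and the difference of -0.21 (-0.68 to 0.27, limma adjusted p 0.93) was -0.058 without it. It was -0.063 without control array 2, and -0.35 and -0.31 without control array 1 and exposed array 3. For these dim probe sets the intervals bound the array values, and bound RNA amounts less well.

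**Figure D2:**
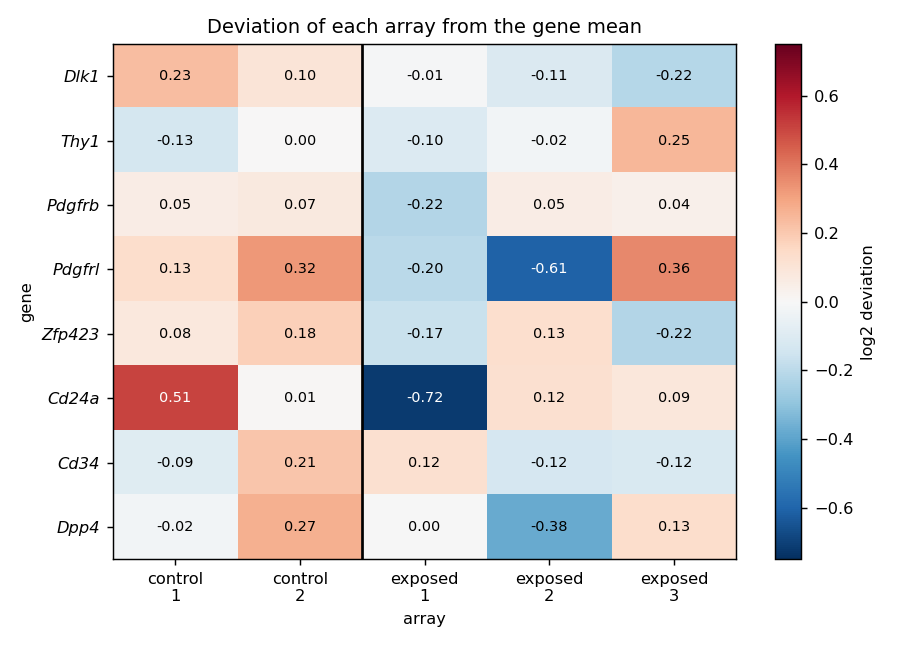
Deviation of each array (columns, controls left of the black line) from a gene's mean over the 5 arrays (rows), in log2 units. The lowest cell is Cd24a on exposed array 1 (-0.72), followed by Pdgfrl on exposed array 2 (-0.61), so the low exposed values of different markers sit on different arrays.

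No single exposed array carried the low values of the markers. The lowest reading of a member fell on exposed array 1 for 2 members, on exposed array 2 for 3, on exposed array 3 for 2 and on control array 1 for 1 member. The highest fell on control array 2 for 4 members and on control array 1 and exposed array 3 for 2 each. Averaged over the 8 members, the deviation from the gene means was -0.16, -0.12 and 0.039 on exposed arrays 1 to 3 and 0.095 and 0.15 on control arrays 1 and 2. All 3 exposed averages were below both control averages, with exposed array 3 the nearest. No test was made of this average. This order was not particular to the members. PDGF signalling genes had it too, at -0.082, 0.00071 and -0.073 on exposed and 0.082 and 0.073 on control arrays. General fibroblast and mesenchymal genes had -0.063, 0.0026 and -0.0064 against 0.037 and 0.030. Genes around DLK1 and, narrowly, committed preadipocyte markers (both described below) had the same order, and the remaining lists overlapped. The same average for 15 mature adipocyte markers was -0.030, -0.0025 and -0.045 on exposed and 0.084 and -0.0063 on control arrays. These adipocyte values overlapped between the groups, and their part in the progenitor values was not tested.

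**Figure D3:**
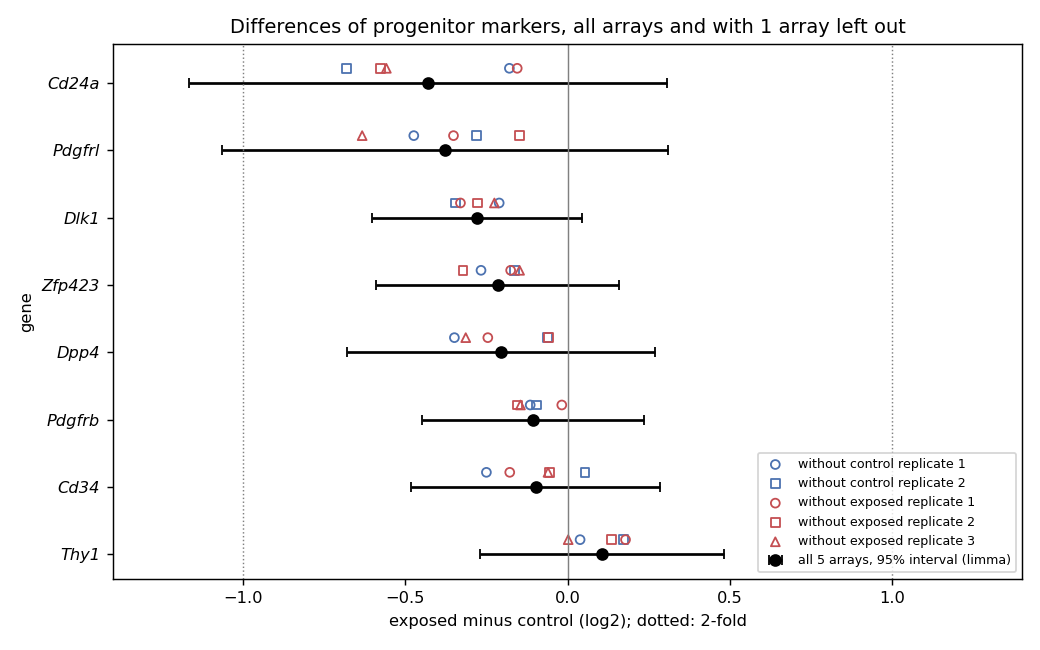
Exposed minus control (log2) for each marker with its 95% limma interval from all 5 arrays (black), and the same difference with 1 array left out (open symbols). Every interval covers 0, those of Cd24a and Pdgfrl pass the dotted 2-fold line, and the open symbols of Cd34 fall on both sides of 0.

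**Figure D4:**
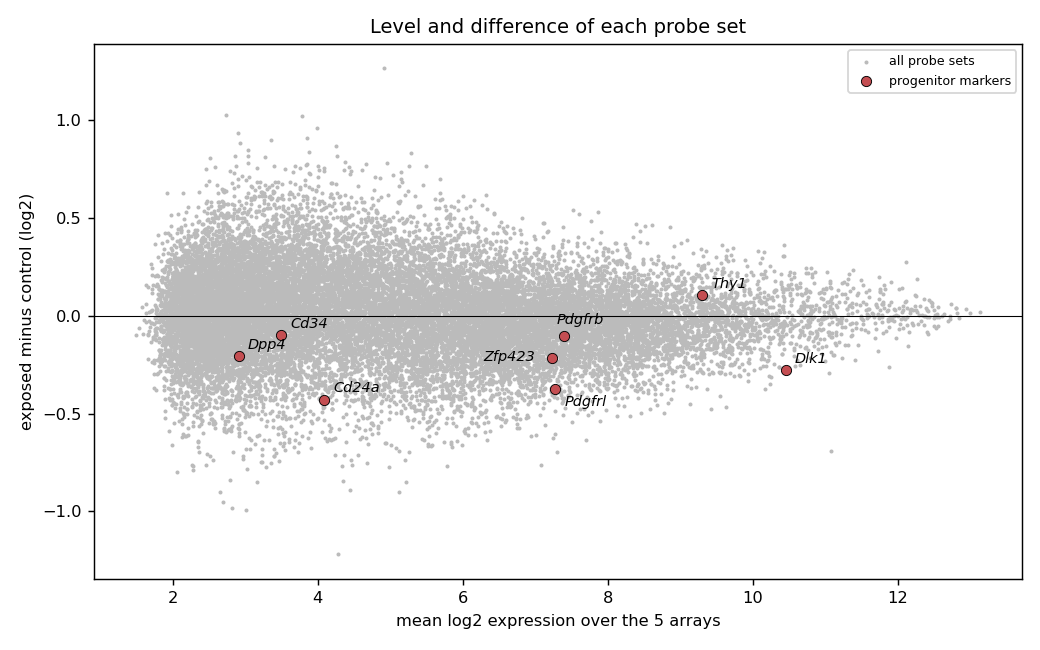
Mean log2 level over the 5 arrays against exposed minus control (log2) for all 22206 probe sets (grey) and the 8 progenitor markers (red). The markers lie inside the grey cloud, 7 of 8 below the zero line, with Dlk1 at a level of 10.45 and a difference of -0.28.

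Other genes of the same pathways were taken from 11 lists, and none of their genes passed at an adjusted p under 0.05. The lists hold 152 gene names together with the members, of which 143 were measured, and some genes stand in several lists. In PDGF signalling, 11 of 13 measured genes had a lower exposed mean (median -0.15). For 3 of the 13 all exposed values lay below both controls and for 0 above both, against 8.84% and 8.5% of all probe sets. Grb2, the adaptor that links such receptors to RAS, read 6.49, 6.57 and 6.49 on exposed and 7.06 and 7.02 on control arrays. These groups were well apart, at a difference of -0.53 (-0.82 to -0.24), with an unadjusted limma p of 0.0042 and an adjusted p of 0.93. The ligand genes, named outside the rule to give all 4, differed by -0.0062 for Pdgfa, -0.25 for Pdgfb, -0.15 for Pdgfc and -0.00039 for Pdgfd, and each overlapped between groups.

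Genes around DLK1, namely Notch pathway genes and inhibitors of adipogenesis, were lower in mean for 10 of 14 (median -0.11). Adam17, the protease that sheds DLK1 from the cell surface, read 7.11, 7.39 and 6.68 on exposed and 7.59 and 7.30 on control arrays, overlapping, at a difference of -0.38 (-0.95 to 0.19). It was -0.19 without exposed array 3, -0.24 without control array 1 and -0.55 without exposed array 2. Notch3, a receptor also typical of mural cells, differed by -0.32, by -0.080 without control array 2 and by -0.56 without control array 1 (unadjusted limma p 0.014). Neither passed (limma adjusted p 0.93 for both).

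Partners of ZFP423 and other commitment factors were split in sign, with 10 of 16 higher and a median of 0.03. For 5 of the 16 all exposed values lay below both controls and for 1 above both, against 8.84% and 8.5% of all probe sets. Bmp4, a growth factor that commits mesenchymal cells to the fat lineage, read 4.23, 4.08 and 4.21 on exposed and 3.66 and 3.39 on control arrays. All exposed values were above the controls, at a dim level, with a difference of 0.65 (0.30 to 0.99, unadjusted limma p 0.0035, adjusted p 0.93). Bmpr1a, a receptor for BMP4, went the other way in mean, reading 5.49, 6.01 and 5.44 on exposed and 6.20 and 6.18 on control arrays (-0.55, -1.03 to -0.06, unadjusted limma p 0.033, adjusted p 0.93). Ebf1, which encodes a factor bound by zinc-finger proteins of the ZFP423 family and was named after its value was seen, read 10.21, 10.25 and 9.85 on exposed and 10.31 and 10.36 on control arrays, a difference of -0.23 (-0.63 to 0.17).

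Markers of DPP4-type multipotent progenitors were balanced in sign, with 8 of 15 higher and a median of 0.01. All exposed values lay below both controls for 4 of the 15 and above both for 1, against 8.84% and 8.5% of all probe sets. Gap43, a growth-associated protein, differed by -0.47 (unadjusted limma p 0.049, adjusted p 0.93), with exposed values of 5.64, 5.65 and 5.90 against control values of 6.46 and 5.95. It was -0.22 without control array 1 and -0.73 without control array 2. Committed preadipocyte markers, a list that holds Dlk1 itself and shares Fabp4, Lpl and Cd36 with the adipocyte list, had 6 of 15 higher and a median of -0.0045. The largest differences there were 0.39 for the chemokine gene Cxcl14, which was 0.015 without control array 1 and 0.77 without control array 2, and -0.30 for F3, the tissue factor gene. General fibroblast and mesenchymal markers were lower in mean for 13 of 16 (median -0.080). For 5 of these 16 all exposed values lay below both controls and for 0 above both, against 8.84% and 8.5% of all probe sets. Their largest differences were 0.49 for Eng, the endoglin gene, and -0.27 for Postn, the periostin gene. Without control array 1 these values were 0.11 and -0.014, and without control array 2 they were 0.87 and -0.54.

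**Figure D5:**
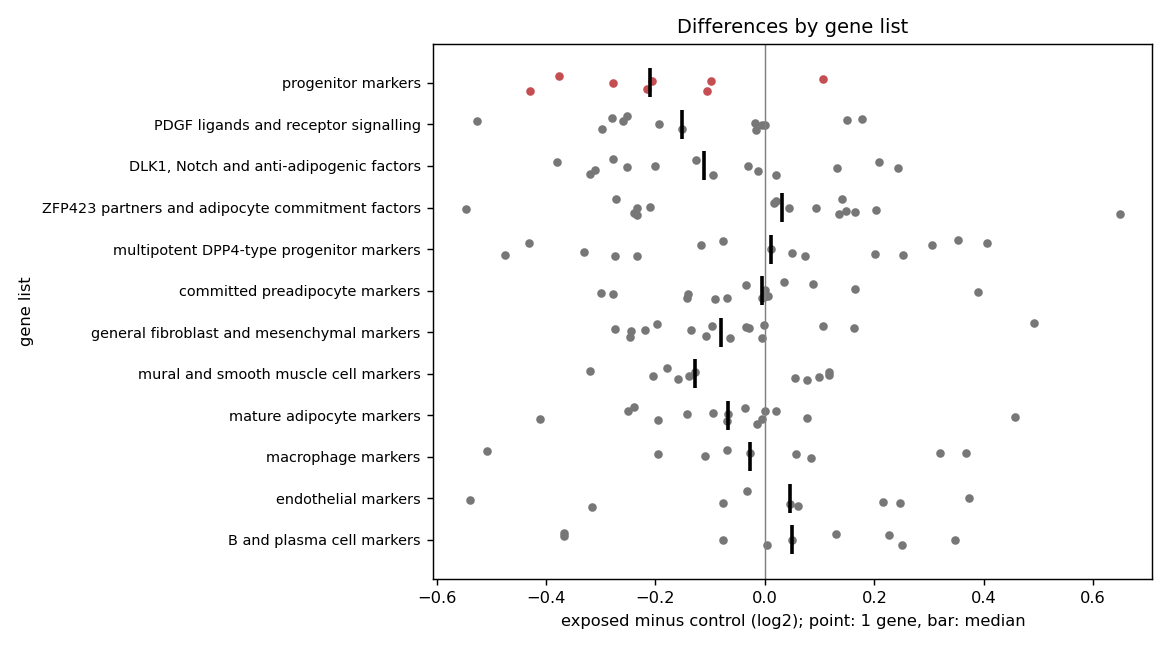
Exposed minus control (log2) for the measured genes of the progenitor markers (red) and of 11 other lists (grey); each point is 1 gene and each black bar a median. Medians run from -0.21 for the progenitor markers to 0.05 for B and plasma cell markers, and single genes spread on both sides of 0 in every list.

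Markers of other cell types gave no called gene either. Mural and smooth muscle genes were lower for 6 of 11 (median -0.13), with Notch3 at -0.32 and Cnn1, the calponin gene, at -0.21, which turned to 0.076 without exposed array 3. Mature adipocyte genes were lower for 11 of 15 (median -0.067), and Retn, the resistin gene, was at 0.46 with an unadjusted limma p of 0.031 and an adjusted p of 0.93. Macrophage genes were lower for 5 of 9 (median -0.027), with C1qa at -0.51 and C1qb at 0.37. C1qa was -0.33 without exposed array 2, and C1qb was -0.055 without control array 1 and 0.79 without control array 2. Endothelial genes were lower for 4 of 9 (median 0.046), with Tie1 at -0.54 and Esam at 0.37. With 1 array left out Tie1 ran from -0.72 (without control array 1) to -0.30 (without exposed array 3), and Esam from 0.22 (without exposed array 1) to 0.54 (without exposed array 3). B and plasma cell genes were lower for 3 of 9 (median 0.050), with Cd79b and Mzb1 each at -0.37. Mzb1 was -0.029 without control array 1 and -0.71 without control array 2, and Cd79b was -0.96 and 0.23. Apart from Retn, the genes named here had mean levels from 2.40 to 5.15.

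The array profiles most like those of the most variable members were sought among named probe sets no dimmer than the median, 10025 for Cd24a and 10024 for Pdgfrl. Likeness was the root mean square difference between profiles over the 5 arrays, each taken from its own mean. Nearest to Cd24a were Enox1, a cell-surface oxidase gene, at 0.057, Nr1h3, which encodes the sterol receptor LXR alpha, at 0.074, and Oma1, a mitochondrial protease gene, at 0.081. Enox1 read 4.77, 5.53 and 5.53 on exposed and 5.92 and 5.33 on control arrays, with the same low exposed array 1 as Cd24a. Nearest to Pdgfrl were the transcription factor gene Foxd1 at 0.073, Ccdc90b at 0.096 and Thsd7a at 0.13. Foxd1 read 4.97, 4.40 and 5.50 on exposed and 5.22 and 5.32 on control arrays, again low on exposed array 2. With 5 arrays and this many probe sets, close profiles are a description only.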

How the data were processed

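The deposited values are log2 expression values, 1 for each of 22206 probe sets on each of 5 Affymetrix Clariom S mouse arrays. Per the submitters' processing notes the authors used RMA and Partek; their versions and the annotation build are not given in the sources used here. By platform annotation, 19572 probe sets had 1 symbol, 0 several and 2634 none; 1 listed gene was found under its current symbol. Groups came from the sample descriptions. Exposed minus control was fitted by lmFit and eBayes (limma 3.58.1, R 4.3.3) without a filter, with no term besides group, 3 residual degrees of freedom and a prior of 3.17; p-values are two-sided and were adjusted by Benjamini-Hochberg over all probe sets; a call is an adjusted p under 0.05. The script was tested on simulated data. The members and gene lists were chosen with earlier results of these data known. All 8 measured members were named; each other list gave up to 4 genes by unadjusted p under 0.05, or else the 2 with the largest difference; and 3 nearest profiles were named for the 2 members of largest SD. Alternatives were other moderation, a level filter, other scaling, array weights, a replicate or title-number block, another call rule and leaving out each array.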

Additional observations from a re-analysis of the deposited data

How the results depend on the processing

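All alternatives were listed before they were run. The number of members called stayed 0 under each of them, and so did the number of probe sets called, except that calling by a 2-fold difference together with an unadjusted p under 0.05 gave 4 probe sets and 0 members. At an unadjusted p under 0.05 alone, the 776 probe sets became 362 with the dimmer ones left out, where fewer were tested, and 1378 without control array 1. Members at that p numbered 0, and 1 with limma-trend (Dlk1), with the replicate block or without exposed array 3 (Pdgfrl for both). Of the 8 members, 7 kept the sign of their difference throughout; Cd34 ran from -0.25 to 0.054 with 1 array left out, the latter without control array 2. Of the 24 other named genes 19 kept theirs. The exceptions were Cnn1 (from -0.35 to 0.076, the latter without exposed array 3 and also with the replicate block), C1qb (from -0.055, without control array 1, to 0.79), Cd79b (from -0.96 to 0.23, the latter without control array 2), Nr1h3 (from -0.60 to 0.00045, the latter without exposed array 1 and also with the title-number block) and Thsd7a (from -0.37 to 0.0067, the latter without exposed array 2). The labels do not say that a replicate number marks a shared culture or day, so the numbers were not taken as pairs. Deviations of same-numbered exposed and control arrays had correlations across probe sets of -0.014 and -0.032. With 2 control arrays the control deviations mirror each other, so this check cannot exclude pairing. With the replicate block, which leaves exposed array 3 without a partner and 1 residual degree of freedom, Dlk1 differed by -0.23, Pdgfrl by -0.63 and the member median was -0.19, with 0 calls. The median of the members ranged from -0.23 to -0.13 with 1 array left out. Fits with 1 control array left take its spread to be that of the exposed group. The mean over several probe sets was not run, since no named gene had several.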
